A study of Mus musculus with 2 samples.

Results

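E proteins, Id proteins and the Tal1-Lmo2 partners are 9 genes whose products pair with one another, and they were read here in DN3 thymocytes of Miz1 knockout and wild-type mice. All probe sets of the array whose annotated symbol is exactly Tcf3, Tcf4, Tcf12, Id1, Id2, Id3, Tal1, Lyl1 or Lmo2 were taken, 22 of 45101 probe sets in all, and each was read separately. The labels give 1 array of Miz1 knockout cells and 1 array of wild-type cells, both on the C57BL/6 background and both from thymocytes sorted as lineage-negative, CD44-negative and CD25-positive, the phenotype called DN3. The series' design text names the mutant animals Miz1-delta-POZ, so their Miz-1, a zinc finger transcription factor encoded by Zbtb17, lacks the POZ domain through which such factors pair. The labels give no sex, age, treatment or Cre driver, and do not say whether a sample was 1 animal or a pool.

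E proteins are basic helix-loop-helix transcription factors that bind DNA as pairs at the E-box and drive T lineage genes in early thymocytes. Id proteins keep the helix-loop-helix that makes the pair but lack the part that touches DNA, so an E protein held by an Id protein is inactive. Signals from the pre-T cell receptor and the gamma-delta receptor raise Egr factors, which raise Id3, and Id3 then lowers E protein activity as the cells leave the DN3 stage. Tal1 and Lyl1 also pair with E proteins, and Lmo2 is the bridge that joins such a pair to Ldb1 and GATA factors. These 3 genes belong to stem and progenitor cells, are turned down as T cells commit, and drive T cell leukaemia when they stay on in thymocytes.

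The DN3 label was checked by Il2ra, which encodes CD25 and was bright on both arrays, at 23018 in knockout cells and 4992 in wild-type cells, and by Cd44, at 330.5 in knockout cells and 423.6 in wild-type cells, with a mean below 394, the floor defined next. The targeted gene Zbtb17 read 1361 in knockout cells and 3042 in wild-type cells by its brighter probe set, and the other one, with a mean below it, went the other way. The labels do not place these probes relative to the deleted part, so neither one checks the genotype. Xist, the RNA of the silenced X chromosome in female cells, read 55300 in knockout cells and 423 in wild-type cells, and Kdm5d on the Y chromosome 36.7 in knockout cells and 1782 in wild-type cells. The sex of the animals thus cannot be told apart from the genotype in any value given here.

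With 1 array per genotype there was no replicate, so no difference was tested and each is described by its size. The values are signal intensities in arbitrary units. A floor was set at the median of all non-control values of both arrays, 394, and lower values were raised to it before the log2 ratio of knockout over wild type was taken. A probe set was called measured where its mean of both arrays was above the floor. Where only 1 of the 2 arrays lay below the floor, the ratio bounds the fold from below, and "at least" stands before it. A measured probe set of this kind could only lie on the side of the array that was above the floor. Of the 22 probe sets 16 were measured: 13 of the 14 E protein probe sets, 3 of the 5 Id protein probe sets and none of the 3 for Tal1, Lyl1 and Lmo2. One measured probe set, of Id2, was past 2-fold on the higher side in knockout cells, and one, of Tcf3, was past it on the lower side. Over all 21897 measured probe sets 8.17% were past 2-fold on the higher side and 5.43% on the lower, so the counts of 1 and 1 among 16 are near the background of these arrays. At a 1.5-fold limit 1 of the 16 was higher and 3 were lower, against 21.9% and 17.6% of all measured probe sets. Measured probe sets of the same gene spread with an SD of 0.57 on the log2 scale, over 4514 genes with more than 1 such probe set. That spread covers differences within this pair of arrays and none between animals.

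**Figure D1:**
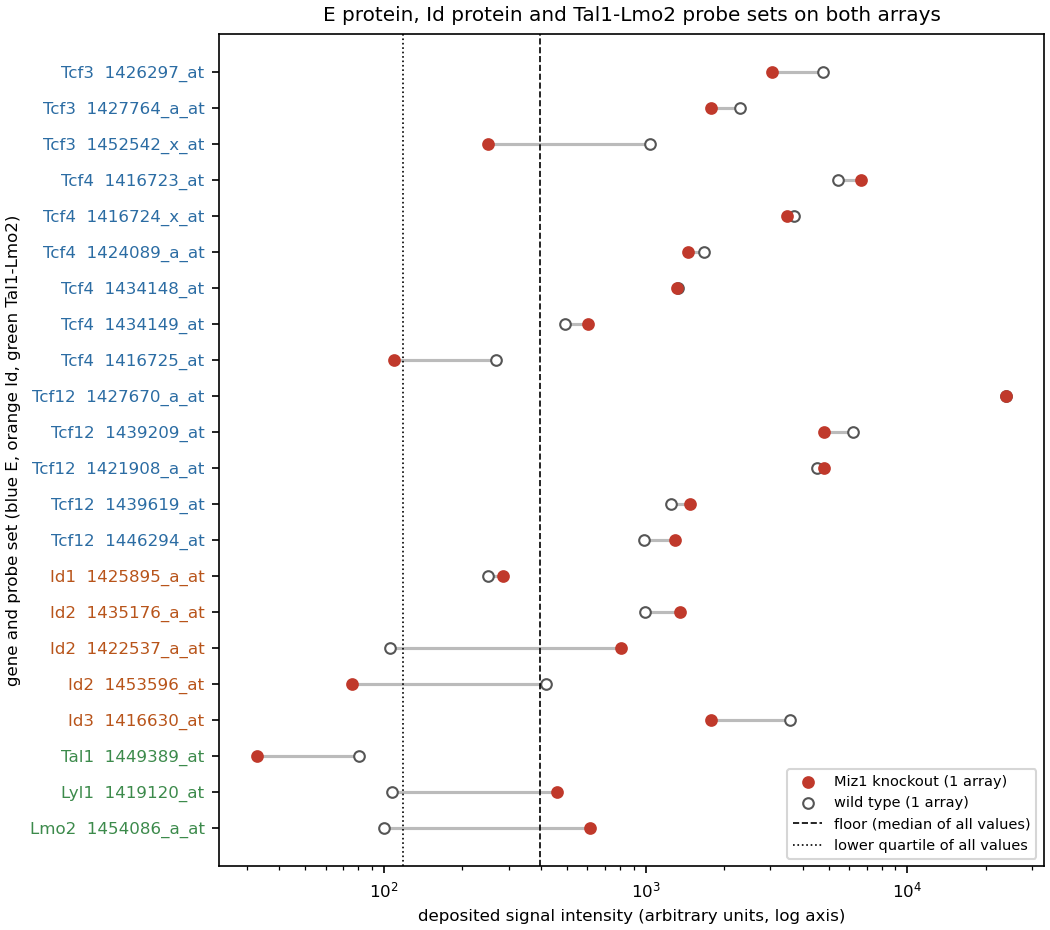
Signal of the 22 probe sets of the 9 genes on the Miz1 knockout array (filled) and the wild-type array (open), 1 array each, on a log axis in arbitrary units. The dashed line is the floor of 394 and the dotted line the lower quartile of all values, 119. The knockout and wild-type points of Tcf4 and Tcf12 lie close together wherever both are above the floor, whereas those of Id3, of the Tcf3 probe sets 1426297_at and 1452542_x_at and of the dim Id2, Lyl1 and Lmo2 probe sets lie farther apart.

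The E-box, written CANNTG, is the letter pattern that E proteins bind as pairs. Promoters are therefore shown for 4 genes with an entry in the RefSeq promoter table, chosen after their values were seen. They are those of Id2, Id3, Lyl1 and Tcf3. Each runs 5′ to 3′ from 250 bases before to 50 bases after the annotated start, in build GRCm38.p6, with E-boxes in capitals. The Id2 promoter lies at chr12:25096043-25096342 on the minus strand, that of Id3 at chr4:136143572-136143871 on the plus strand, that of Lyl1 at chr8:84701207-84701506 on the plus strand and that of Tcf3 at chr10:80433586-80433885 on the minus strand.
Id2 promoter: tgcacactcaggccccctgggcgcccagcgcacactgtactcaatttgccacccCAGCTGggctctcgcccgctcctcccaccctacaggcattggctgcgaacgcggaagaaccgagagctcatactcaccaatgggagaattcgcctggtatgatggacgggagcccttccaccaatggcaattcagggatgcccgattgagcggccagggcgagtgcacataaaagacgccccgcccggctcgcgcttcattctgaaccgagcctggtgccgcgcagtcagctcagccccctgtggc
Id3 promoter: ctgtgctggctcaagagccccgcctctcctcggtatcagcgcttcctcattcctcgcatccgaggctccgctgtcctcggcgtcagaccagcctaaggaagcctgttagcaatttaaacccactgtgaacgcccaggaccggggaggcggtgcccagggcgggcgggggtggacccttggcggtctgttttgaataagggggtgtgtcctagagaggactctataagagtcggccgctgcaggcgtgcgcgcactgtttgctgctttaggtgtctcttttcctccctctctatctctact
Lyl1 promoter: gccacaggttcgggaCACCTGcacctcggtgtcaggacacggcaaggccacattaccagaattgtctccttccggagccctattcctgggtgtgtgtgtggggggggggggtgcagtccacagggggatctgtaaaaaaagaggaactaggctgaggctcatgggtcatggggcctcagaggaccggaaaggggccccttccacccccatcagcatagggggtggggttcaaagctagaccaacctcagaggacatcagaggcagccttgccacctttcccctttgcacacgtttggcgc
Tcf3 promoter: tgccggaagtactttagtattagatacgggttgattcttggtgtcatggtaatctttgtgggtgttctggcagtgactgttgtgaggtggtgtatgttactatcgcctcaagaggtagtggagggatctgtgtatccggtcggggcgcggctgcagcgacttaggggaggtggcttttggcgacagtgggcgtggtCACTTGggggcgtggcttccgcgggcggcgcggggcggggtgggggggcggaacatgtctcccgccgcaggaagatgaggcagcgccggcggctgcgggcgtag
The Id2, Lyl1 and Tcf3 windows each hold 1 E-box and the Id3 window holds 0. Of 32851 promoters of the same length, 72.3% hold at least 1, so an E-box does not set these genes apart. The E-box of Id2 is CAGCTG, a form found in 16.3% of promoters. The E-box of Lyl1 is CAGGTG on the opposite strand, a form found in 20.2%. An Egr-type pattern, GCGNGGGCG on either strand, was found in none of these 4 windows and in 5.55% of all promoters. The table matched 6 of the 9 genes with 9 promoters. Id1, Lmo2 and Tcf4 had no entry.

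Among the E proteins Tcf3 was 1.56-fold lower in the knockout by its brightest probe set, and its next one differed by less than the spread between probe sets. Tcf3 encodes the E protein that thymocytes need to hold the DN3 checkpoint until the receptor beta chain is made. Its brightest probe set, 1426297_at, read 3048 in knockout cells and 4746 in wild-type cells, 1.56-fold lower, a log2 ratio of -0.64. The second, 1427764_a_at, read 1780 in knockout cells and 2287 in wild-type cells, 1.28-fold lower, which is within the spread between probe sets. The dimmest, 1452542_x_at, read 249.9 in knockout cells and 1040 in wild-type cells, at least 2.64-fold lower, and was measured only through its wild-type signal, so it could only lie on the lower side. Among all measured probe sets 15.4% had a log2 ratio as low as the brightest and 28.0% as low as the second. For the dimmest the share was 1.33%. The name of the dimmest carries the suffix that the array maker gives to probe sets that can cross-hybridise. The dimmest is also the sole Tcf3 probe set past 2-fold. The 2 brighter probe sets, above the floor on both arrays, had log2 ratios of -0.64 and -0.36.

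Tcf12 and Tcf4 read nearly alike in both genotypes. Tcf12 encodes HEB, the E protein that pairs with the Tcf3 product in thymocytes. Its brightest probe set, 1427670_a_at, read 23866 in knockout cells and 23708 in wild-type cells, a log2 ratio of 0.01. The other 4 Tcf12 probe sets had log2 ratios between -0.36 and 0.38. In signal they ranged between 1292 and 4801 in knockout cells and between 990 and 6182 in wild-type cells. Tcf4 is the E protein known best for plasmacytoid dendritic cells and is also made in early lymphocytes. Its brightest probe set, 1416723_at, read 6642 in knockout cells and 5445 in wild-type cells, a log2 ratio of 0.29. The other 4 measured Tcf4 probe sets had log2 ratios between -0.20 and 0.28. The sixth, 1416725_at, was below the floor on both arrays, at 109.7 in knockout cells and 267.6 in wild-type cells. All 10 measured probe sets of Tcf4 and Tcf12 differed by less than the spread between probe sets of a gene, as did 59.2% of all measured probe sets. The widest difference among the 10 was 1.30-fold. With no replicate these values do not show that the 2 genes were equal in the genotypes.

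Of the Id proteins Id3 was lower in the knockout, while the 3 probe sets of Id2 did not give 1 direction. Id3 is the Id protein raised by receptor signals in thymocytes. Its single probe set, 1416630_at, read 1779 in knockout cells and 3555 in wild-type cells, 1.998-fold lower, a log2 ratio of -0.998. It falls just short of the 2-fold limit, and both signals were more than 4 times the floor. Among measured probe sets 5.46% had a log2 ratio as low as that of Id3. After median centring the Id3 value was 2.05-fold lower, after quantile normalization 2.04-fold and after loess normalization 2.02-fold, so it passed 2-fold under those scalings.

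Id2 is the Id protein that innate lymphoid and natural killer cells depend on. Its brightest probe set, 1435176_a_at, read 1351 in knockout cells and 997 in wild-type cells, 1.36-fold higher and within the spread between probe sets. The second, 1422537_a_at, read 803.9 in knockout cells and 106.1 in wild-type cells, at least 2.04-fold higher and just past the limit. It was measured only through its knockout signal, so it could only lie on the higher side. Of all measured probe sets 7.64% had a log2 ratio at least as high. It was 1.99-fold higher after median centring, 1.95-fold after quantile normalization and 1.92-fold after loess normalization, and so fell short of 2-fold there. The third Id2 probe set, 1453596_at, went the other way, at 75.7 in knockout cells and 416.9 in wild-type cells, with a mean below the floor. With the floor at the lower quartile of all values it was at least 3.52-fold lower while 1422537_a_at was at least 6.78-fold higher, so the dim Id2 probe sets do not give 1 direction. Id1, which growth factor signals of the BMP type raise in other tissues, was below the floor on both arrays, at 284.8 in knockout cells and 250.1 in wild-type cells.

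**Figure D2:**
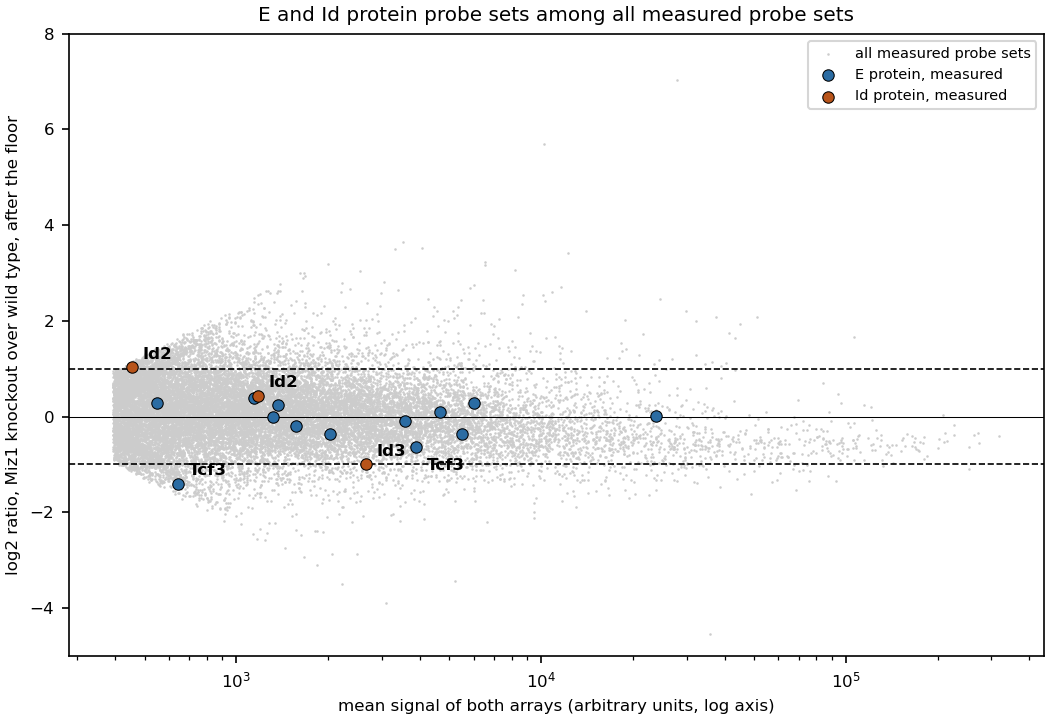
Log2 ratio of Miz1 knockout over wild type after the floor, against the mean signal of both arrays on a log axis, for all 21897 measured probe sets (grey) and the 16 measured E protein (blue) and Id protein (orange) probe sets. Dashed lines mark 2-fold. One Tcf3 probe set lies below the lower line, Id3 lies on it, one Id2 probe set lies just above the upper line at the dim end of the plot, and the others lie between the lines.

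Lmo2 and Lyl1 were above the floor in the knockout only, while Tal1 was dim in both. Each of these genes had 1 probe set, and none of the 3 was measured by the mean of both arrays. Lmo2, by 1454086_a_at, read 615.6 in knockout cells and 99.9 in wild-type cells, at least 1.56-fold higher. Lyl1, a close relative of Tal1 made in T cell progenitors, read 460.4 in knockout cells and 107.3 in wild-type cells by 1419120_at, at least 1.17-fold higher. On both genes the knockout array was above the floor and the wild-type array was below the lower quartile of all values. Tal1, by 1449389_at, was below that quartile on both arrays, at 32.7 in knockout cells and 80.2 in wild-type cells. Under a floor at the 60th percentile of all values, 550.1, Lmo2 was at least 1.12-fold higher. Lyl1 was then below the floor on both arrays. With the floor lowered to the lower quartile, 119, Lmo2 was at least 5.19-fold higher and Lyl1 at least 3.89-fold higher. At that floor 19.5% of 37161 measured probe sets were past 2-fold on the higher side and 15.2% on the lower, so differences of this kind were frequent among dim probe sets. The Id2 probe set 1422537_a_at had the same form, above the floor in the knockout and below the lower quartile in the wild type.

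**Figure D3:**
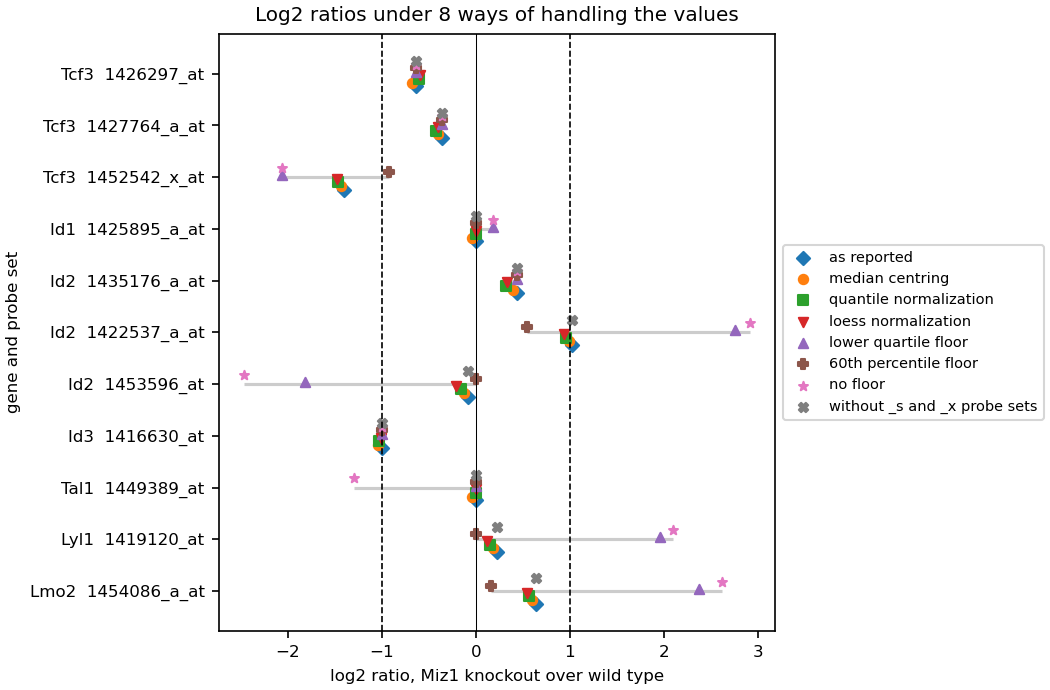
Log2 ratio of Miz1 knockout over wild type for the probe sets of Tcf3, Id1, Id2, Id3, Tal1, Lyl1 and Lmo2, as reported and under 7 other ways of handling the values. Dashed lines mark 2-fold. Id3 and the 2 brighter Tcf3 probe sets stay in place, whereas the dim probe sets of Id2, Lyl1 and Lmo2 move with the floor, Lmo2 between 0.16 and 2.62.

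Most of the other genes that work in the same complex lay within 2-fold. From here on each gene is read by its brightest probe set, and over the 10770 genes measured in this way 7.23% were past 2-fold on the higher side and 5.65% on the lower, around a median log2 ratio of 0.00. Of 17 listed partners of the Tal1-Lmo2 complex 13 were measured, 1 was past 2-fold on the higher side and 0 on the lower, and their median log2 ratio was 0.14. The higher one was Gata1, the GATA factor of red cells, platelets and mast cells, at 881.8 in knockout cells and 386.9 in wild-type cells, at least 2.24-fold. With the floor at the 60th percentile of all values 0 partners passed. Ldb1, the protein that Lmo2 binds to reach distant enhancers, read 4380.5 in knockout cells and 3965 in wild-type cells, a log2 ratio of 0.14. Gata3, the GATA factor of T cells, had a log2 ratio of 0.16 and Gata2, that of progenitors, one of -0.19. Cbfa2t3, a corepressor of Tal1 and E proteins, read 7369 in knockout cells and 5016 in wild-type cells, 1.47-fold higher, and its 4 measured probe sets were all on the higher side. Of 11 listed corepressors and coactivators of E proteins, 10 were measured and 0 passed 2-fold in either direction, with a median of 0.21. That list shares 3 genes with the list of partners.

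Several genes that E proteins are known to switch on in thymocytes were higher in knockout cells. Of 22 listed, 18 were measured, 5 were past 2-fold on the higher side, where 7.23% of all measured genes were, and 0 on the lower side, around a median of 0.54. The highest was Dtx1, a Notch target, at 14456 in knockout cells and 2841 in wild-type cells, 5.09-fold. Cdkn1a, the cell cycle inhibitor that p53 also switches on, was 4.34-fold higher, and Socs3, a feedback inhibitor of cytokine signals, had a log2 ratio of 1.59. Ptcra, the gene of the pre-T alpha chain and a direct E protein target, read 11518 in knockout cells and 7513 in wild-type cells, 1.53-fold higher. The recombinase genes Rag1 and Rag2 went to different sides, with log2 ratios of -0.40 and 0.23. This list shares 11 genes with the markers of DN3 cells, of which 15 of 17 were measured, 4 past 2-fold on the higher side and 0 on the lower, around a median of 0.62. Without the shared genes 8 E protein targets were measured, 2 of them past 2-fold on the higher side, around a median of 0.44. The summed signal of the DN3 markers was 364262 in knockout cells and 250895 in wild-type cells, and its part in the values of the E protein targets was not tested.

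Of 15 genes listed as raised by Lmo2 in thymocytes 11 were measured, with a median of 0.14. At least 2-fold higher were 3, where 7.23% of all measured genes were, and 0 were at least 2-fold lower. The list holds Lyl1 and shares 9 genes with the early progenitor markers given below. Without the shared genes 5 were measured, 2 at least 2-fold higher and 0 lower, with a median of 0.49. Nfe2, a transcription factor of blood progenitors and platelets, read 3783 in knockout cells and 771 in wild-type cells, 4.90-fold higher. Mycn, a relative of Myc used by progenitors, was 3.58-fold higher, at 2571 in knockout cells and 718 in wild-type cells. Erg, a transcription factor of stem cells, was at least 2.25-fold higher, at 887.6 in knockout cells and 199.5 in wild-type cells. Erg was measured only through its knockout signal, so it could only lie on the higher side. Hhex, a target of Lmo2 in leukaemic thymocytes, was not higher, at 369.8 in knockout cells and 454.0 in wild-type cells. Kit, the receptor of early progenitors, had a log2 ratio of 0.14 by its brightest probe set. Its second, at 253.3 in knockout cells and 622.6 in wild-type cells, was at least 1.58-fold lower.

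Markers of other cells that use these proteins gave no single picture beside Lmo2, Lyl1 and Id2. Over all measured genes 7.23% were past 2-fold on the higher side and 5.65% on the lower. Of 14 early progenitor markers, a list that holds Lmo2 and Lyl1, 8 were measured, 1 was at least 2-fold higher and 0 lower, with a median of -0.17 and a summed signal of 6467 in knockout cells and 7018 in wild-type cells. The higher one was Erg. Of the 8 measured, 3 lay on the higher side and 5 on the lower, among them Hoxa9, at least 1.77-fold lower. Lmo2, Lyl1, Cd34, Cd44, Flt3 and Meis1 were not measured. Flt3 read 67.6 in knockout cells and 554.3 in wild-type cells, and Meis1 85.3 in knockout cells and 636.6 in wild-type cells. Both were thus above the floor in the wild type only, the reverse of Lmo2 and Lyl1. Of 17 erythroid, megakaryocyte and mast cell markers 6 were measured and 2 were at least 2-fold higher, Cpa3 (2.26-fold) and Gata1, and 0 lower, with a median of 0.13. Their summed signal was 7807 in knockout cells and 6330 in wild-type cells. Gata1 is also counted among the complex partners above, and Cpa3 in the gamma-delta list below. Epor, the erythropoietin receptor gene, read 422.2 in knockout cells and 826.3 in wild-type cells, 1.96-fold lower, and passed 2-fold after median centring (2.01-fold), quantile normalization (2.16-fold) and loess normalization (2.16-fold). Itga2b, a platelet integrin gene, had a log2 ratio of -0.53, and Klf1, Alas2 and Pf4 were below the floor on both arrays. Of 16 natural killer and innate lymphoid markers 8 were measured, 2 were at least 2-fold higher, Nkg7 (2.40-fold) and Xcl1 (at least 2.07-fold), and 0 lower, with a median of 0.19. Of the 8, 4 lay on the higher side and 4 on the lower, of which Klrd1 was the lowest, at least 1.73-fold. Their summed signal was 23784 in knockout cells and 25582 in wild-type cells. Eomes, Tbx21 and Nfil3 were below the floor on both arrays. Myeloid markers had a summed signal of 13553 in knockout cells and 7071 in wild-type cells. Of 18 listed, 6 were measured, 4 past 2-fold on the higher side, of which Lyz1 (8.19-fold), Lyz2 (3.59-fold) and Ctss (at least 2.40-fold) were the highest, and 1, Cebpb, 2.62-fold lower, around a median of 1.23. Without probe sets that can cross-hybridise 2 were past 2-fold on the higher side and the median was 0.05. Lyz1 was read by such a probe set, and its second, also of that kind, was 1.83-fold higher. The third Lyz1 probe set, not of that kind, was below the floor on both arrays, at 42.7 in knockout cells and 64.5 in wild-type cells. Mpo, Elane and Cd68 were below the floor on both arrays. Of 12 B cell markers 8 were measured, with Vpreb1 at least 2.02-fold higher, Ighm 2.49-fold and Cd22 at least 2.02-fold lower and a median of 0.58. Their summed signal went the other way from the median, at 21168 in knockout cells and 34687 in wild-type cells. The measured probe sets of Ighm had log2 ratios between -1.31 and 0.54. Ebf1 and Pax5 were below the floor on both arrays. Of 15 markers of plasmacytoid and other dendritic cells, which use Tcf4, 5 were measured, with Ly6d 2.32-fold higher, Ccr9 4.32-fold lower and a median of 0.05. Of 14 endothelial and stromal markers 4 were measured and 0 passed 2-fold, with a median of 0.25. Of 14 markers of mature and double positive T cells 6 were measured, with Klf2 at least 2.67-fold higher and a median of -0.41. The part of such cells in the Id2, Lyl1 and Lmo2 values was not tested, and in sorted cells more RNA per cell and more cells of another kind cannot be told apart.

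Of 19 listed inducers of Id genes 15 were measured, 3 were past 2-fold on the higher side (1 with the mean of probe sets), where 7.23% of all measured genes were, and 0 on the lower, with a median of 0.13. Egr1, which carries receptor signals to Id3, read 1342 in knockout cells and 1225 in wild-type cells, a log2 ratio of 0.13. Egr2 was below the floor on both arrays. Egr3, at 116.8 in knockout cells and 524.1 in wild-type cells, and Egr4, at 53.6 in knockout cells and 677.7 in wild-type cells, were not measured by their means. With the floor at the lower quartile of all values both were measured, Egr3 at least 4.42-fold lower and Egr4 at least 5.72-fold lower. That put 2 of the inducers past 2-fold on the lower side, where 15.2% of all measured probe sets were at that floor. Both were measured there only through their wild-type signal, so they could only lie on the lower side. The 3 higher ones were the receptor gene Bmpr2 (2.84-fold), the TGF-beta receptor gene Tgfbr2 (2.45-fold) and the inhibitor gene Smad7 (2.13-fold). The second measured probe sets of Bmpr2 and Smad7 lay on the lower side, with log2 ratios of -0.39 and -0.34. Smad5, Smad3 and Nfatc2 were within 2-fold by their brightest probe sets. Each had a dimmer one past 2-fold on the higher side, with log2 ratios of 1.81, 1.10 and 1.01. Further measured probe sets of Smad5 and Nfatc2 had log2 ratios of -0.16 and 0.07.

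Gamma-delta T cells and innate-like T cells are the populations whose size depends on Id3. Of 18 listed genes 9 had a named probe set and 7 were measured, with a median of 0.21. At least 2-fold higher were 3, where 7.23% of all measured genes were, and 0 were at least 2-fold lower. Trgv4, a receptor gamma variable segment, read 65522 in knockout cells and 20957 in wild-type cells, 3.13-fold higher, by a probe set that can cross-hybridise with related segments. Its other 2 probe sets were 3.36-fold and 4.95-fold higher. Maf, a transcription factor of interleukin-17-producing gamma-delta cells, was 2.44-fold higher. The other one was Cpa3, a mast cell protease gene also read in early T cell precursors, at 2003 in knockout cells and 887 in wild-type cells, 2.26-fold higher. Sox13, a factor of the same cells, had a log2 ratio of -0.14, and Zbtb16, the factor of innate-like T cells, was below the floor on both arrays. The summed signal of the list was 108110 in knockout cells and 70946 in wild-type cells, most of it from Trgv4 and Cd24a.

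**Figure D4:**
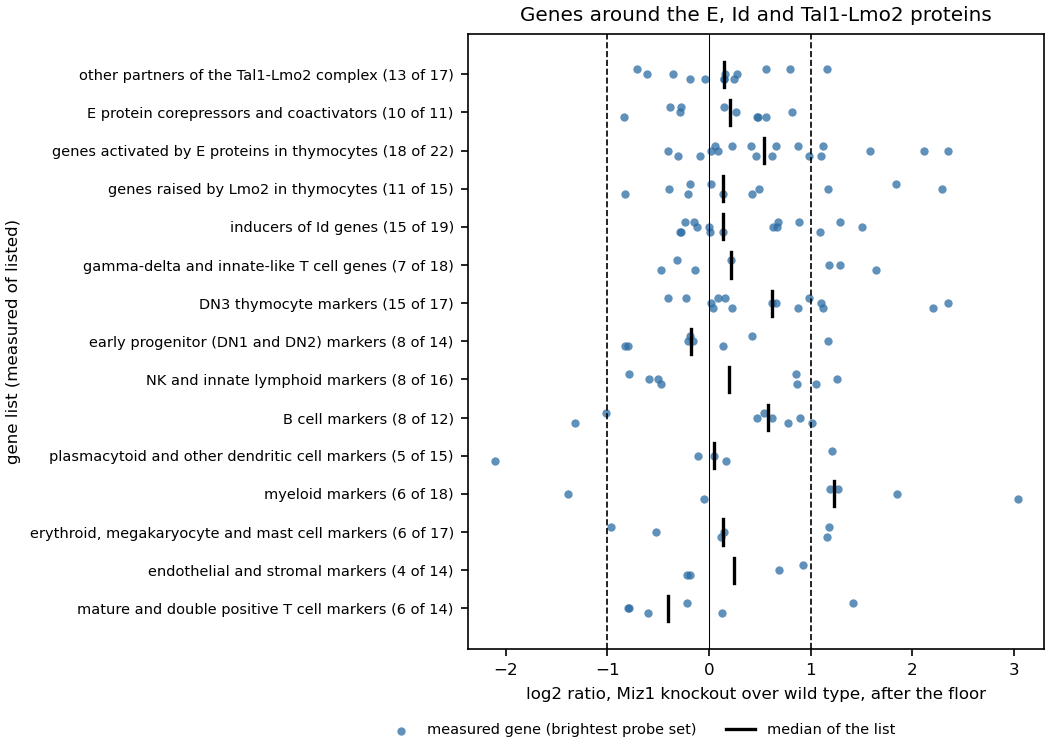
Log2 ratio of Miz1 knockout over wild type for each measured gene of 15 lists, read by its brightest probe set, with the list's median as a bar and 2-fold as dashed lines. The E protein targets and the DN3 markers, which share 11 genes, have medians of 0.54 and 0.62, while the complex partners, the corepressors and coactivators, the Lmo2-raised genes and the Id inducers have medians between 0.13 and 0.21.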

How the data were processed

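Biotin-labelled RNA of sorted thymocytes was read on 1 oligonucleotide array per genotype. The deposited values are signal intensity per probe set on a linear scale, per the submitters' processing notes made with GCOS 1.4. How it was set was not given in the sources used here. With 2% trimmed from either end, the mean was 1000 on both arrays, so the authors' values share 1 scale. The 64 control probe sets were left out. Names came from the platform annotation, with symbols updated by gene identifier from RefSeq (GRCm38.p6). All 22 probe sets of the 9 genes matched. Of the non-control probe sets 34945 had 1 symbol, 932 had several and 9160 had none, and neither of those last kinds was named.

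Log2 ratios, the floor and the 2-fold rule were computed with Python 3.11.15 and numpy 2.4.6, and loess (span 0.3) with statsmodels 0.14.6. The steps were tested on simulated data in which all changes were set on probe sets well above the floor. That test does not cover signals near the floor. The members and the 18 gene lists were chosen with earlier results of these data known. The text names all members with every probe set and, of each other list, up to the 3 highest and 3 lowest genes past 2-fold. Other list genes given as examples, and all second probe sets of list genes, were chosen after their values were seen. Only the number of arrays sets the precision, and no test between genotypes or likeness between genes can be had from 2 arrays. The alternatives tried were quantile and loess normalization, median centring, a floor at the lower quartile (119) or the 60th percentile (550.1), no floor, leaving out probe sets with the suffixes for shared sequence, the mean of probe sets and, added after the data were seen, a 1.5-fold limit.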

Additional observations from a re-analysis of the deposited data

How the results depend on the processing

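No paired analysis was possible because there is 1 array per genotype, and for the same reason no replicate could be left out. Of 152 log2 ratios of the 22 probe sets under 7 alternatives, 139 moved by less than the spread between probe sets (SD 0.57) and 13 by more, all 13 with a lower floor or with none, and no value past 2-fold changed sign. With median centring, quantile or loess normalization 0 of the 22 probe sets were at least 2-fold higher and 2 were at least 2-fold lower, Id3 joining Tcf3. Of the 22, 16 were measured as reported. Under those scalings the counts over all probe sets stayed within 1.5 times 1790 and 1189, which are 8.17% and 5.43% of those measured as reported. The lower quartile floor gave 3 higher (Id2, Lyl1, Lmo2) and 3 lower (Tcf3, Tcf4 and the third Id2 probe set). Over all probe sets it gave 7261 and 5644, which are 19.5% and 15.2% of those measured at that floor. The 60th percentile floor gave 0 and 0 (the Tcf3 probe set 1.89-fold lower), against 1089 and 776 over all probe sets. Without the probe sets that can cross-hybridise 0 were lower. At 1.5-fold 1 was higher and 3 were lower, against 4799 and 3860 over all probe sets, which are 21.9% and 17.6% of those measured. The remaining counts of probe sets were within 1.5 times the reported 1 and 1, and 1790 and 1189 over all probe sets. Of 256 list counts under the alternatives 212 were within 1.5 times and 44 were not. Of 127 list medians 124 moved by less than the spread. The 3 others were that of the natural killer and innate lymphoid markers (0.86 with either other floor, against 0.19) and that of the myeloid markers (0.05 without probe sets that can cross-hybridise, against 1.23). The cause of these moves was not tested. Signals near the floor limit Id2, Lyl1, Lmo2 and Tal1.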
